A study of Mus musculus with 12 samples.

Results

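Of the genes that direct T cell traffic, 6 were followed in CD8 T cells of NOD mice: the sphingosine 1-phosphate receptor genes S1pr1, S1pr4 and S1pr5, the transcription factor genes Klf2 and Klf3, and the chemokine receptor gene Ccr7. They were chosen by name, as 6 of the 32285 genes in the count matrices, for their known roles in leaving tissues and in entering lymph nodes. No threshold on a value was used, but earlier results of these data were known when they were chosen. The cells came from female NOD/ShiLtJ mice, a strain that develops autoimmune diabetes spontaneously, taken before diabetes at 10 to 15 weeks of age, and every group shared this genotype and no treatment. The 3 groups of CD45.1+ CD8+ cells, negative for CD4, B220 and CD11b, were sorted with a Kd tetramer holding the mimotope peptide NRP-V7, which marks cells specific for the beta cell protein IGRP. They were tetramer-positive cells from islets (islet IGRP+), tetramer-negative cells from the same islets (islet IGRP-) and tetramer-positive cells from spleens (spleen IGRP+). Each group had 2 libraries, Round 1 and Round 2, and each library pooled cells of 10 mice, so that a library is a pool and not an animal. Islet IGRP- is a group defined by what the tetramer did not bind, and its specificities are unknown. Islet cells passed through collagenase at body temperature and a further incubation at that temperature, while spleen cells were dissociated mechanically and enriched for CD8 by beads, so that tissue and preparation cannot be told apart. The study also describes the spleen cells as sorted for CD44, a marker of cells that have met antigen, and names no such gate for the islet cells. Such a gate leaves out naive cells, which carry Ccr7, so that in every comparison of spleen with islet it cannot be told apart from the tissue.

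After the filters on mitochondrial UMIs and on genes per cell, 24117 of 26818 cells were kept, from 1204 to 8932 per library, with a median of 2590 to 4216.5 UMIs per cell. A UMI, or unique molecular identifier, marks 1 captured RNA molecule, and levels are given as UMIs of a gene per 1000000 UMIs of all kept cells of a library (CPM). A UMI of a CD3 or CD8 gene was found in 99.2% to 99.8% of the cells of each library, and the summed level of 7 CD8 T cell markers was 4916 to 6814 CPM. Markers of other cells were low. Cd4 was at 0 to 0.2 CPM, natural killer cell markers at 0 to 1 CPM and B cell markers at 24.6 to 71.5 CPM. Exocrine markers summed to 66.3 to 534.5 CPM in the 4 islet libraries and to 5.9 to 6.7 CPM in the spleen libraries, and their part in the results below was not tested.

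Sphingosine 1-phosphate (S1P) is abundant in blood and lymph and scarce inside tissues, and lymphocytes follow this gradient out of lymphoid organs through the receptor S1PR1. KLF2 keeps S1pr1 switched on in resting T cells, and antigen receptor signals lower KLF2. FOXO1 acts upstream of Klf2 and Ccr7, and the surface protein CD69 pulls S1PR1 from the membrane. CCR7 guides naive and memory cells into and through lymph nodes. S1PR5 is known from natural killer cells and circulating effector T cells, S1PR4 is a receptor of lymphocytes that is not essential for egress, and KLF3 is a member of the Krueppel-like family known mainly as a repressor.

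The 6 genes lie apart in the genome. In GRCm38, S1pr1 spans chr3:115710433-115715072 on the minus strand, S1pr4 chr10:81497747-81500132 (minus), S1pr5 chr9:21242912-21248443 (minus), Klf2 chr8:72319033-72321656 (plus), Klf3 chr5:64803388-64832901 (plus) and Ccr7 chr11:99144196-99155077 (minus). S1pr5 overlaps 1 annotated transcript on the other strand and Klf3 overlaps 2, of which 1 is on the same strand, so that reads of this last one could be counted to either gene. The promoter letters of the 4 genes with an entry in the RefSeq table (GRCm38.p6) are shown because these genes differed in their levels between the groups, S1pr4 little and S1pr5, Klf2 and Klf3 by more. Capitals mark CACCC, the core letters bound by Krueppel-like factors, and GGGCGG, the letters bound by Sp factors, on either strand. The windows end at the first annotated start.
S1pr4 promoter, chr10:81500138-81500387, minus strand: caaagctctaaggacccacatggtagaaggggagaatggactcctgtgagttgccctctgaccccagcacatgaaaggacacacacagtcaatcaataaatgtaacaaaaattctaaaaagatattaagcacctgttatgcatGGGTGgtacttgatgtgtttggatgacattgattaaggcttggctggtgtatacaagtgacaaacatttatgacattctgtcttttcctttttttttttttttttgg
S1pr5 promoter, chr9:21248444-21248693, minus strand: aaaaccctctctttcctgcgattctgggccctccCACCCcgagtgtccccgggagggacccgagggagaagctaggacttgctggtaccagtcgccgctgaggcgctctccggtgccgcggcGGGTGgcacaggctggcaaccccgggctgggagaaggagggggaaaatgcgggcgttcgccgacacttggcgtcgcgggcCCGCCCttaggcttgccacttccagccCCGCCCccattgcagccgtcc
Klf2 promoter, chr8:72318812-72319032, plus strand: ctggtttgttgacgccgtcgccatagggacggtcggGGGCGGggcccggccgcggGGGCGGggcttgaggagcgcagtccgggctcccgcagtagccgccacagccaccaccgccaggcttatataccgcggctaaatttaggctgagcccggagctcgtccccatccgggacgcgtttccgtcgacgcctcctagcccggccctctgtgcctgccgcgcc
Klf3 promoter, chr5:64803271-64803387, plus strand: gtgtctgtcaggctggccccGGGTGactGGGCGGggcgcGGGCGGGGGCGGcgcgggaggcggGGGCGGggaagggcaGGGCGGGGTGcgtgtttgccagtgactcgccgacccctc

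In the S1pr4 window 38.8% of the bases were G or C, against 69.2% for S1pr5, 71.5% for Klf2 and 79.5% for Klf3. CACCC occurred once for S1pr4, at 2 places each for S1pr5 and Klf3, and at none for Klf2. GGGCGG occurred at 2 places each for S1pr5 and Klf2, at 5 for Klf3 and at none for S1pr4, and 1 of the Klf3 matches runs into a CACCC match on the opposite strand. GTAAACA, the letters bound by Foxo factors, was in none of the 4 windows. Among all mouse promoter windows of 250 bases, 52.1% held CACCC, 33.0% GGGCGG and 3.17% GTAAACA, so that these matches are common. In windows of the Klf2 length (221 bases) the shares were 48.1%, 28.9% and 2.81%, and in those of the Klf3 length (117 bases) 28.5%, 12.5% and 1.55%. A match is a run of letters and not a measured binding site.

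The first question was whether tetramer-positive cells of the islet differed from their tetramer-negative neighbours and from tetramer-positive cells of the spleen. S1pr1 and Klf3 were 10.4-fold and 4.97-fold lower in islet IGRP+ than in islet IGRP- cells, and both were high again in the spleen. S1pr5 was found in the spleen and was close to nothing in either islet group. S1pr4 had group means of 82.2 to 178 CPM, the narrowest span of the 6 genes as a ratio, and Ccr7 had an order of its own, highest in islet IGRP- and lowest in the spleen.

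**Figure D1:**
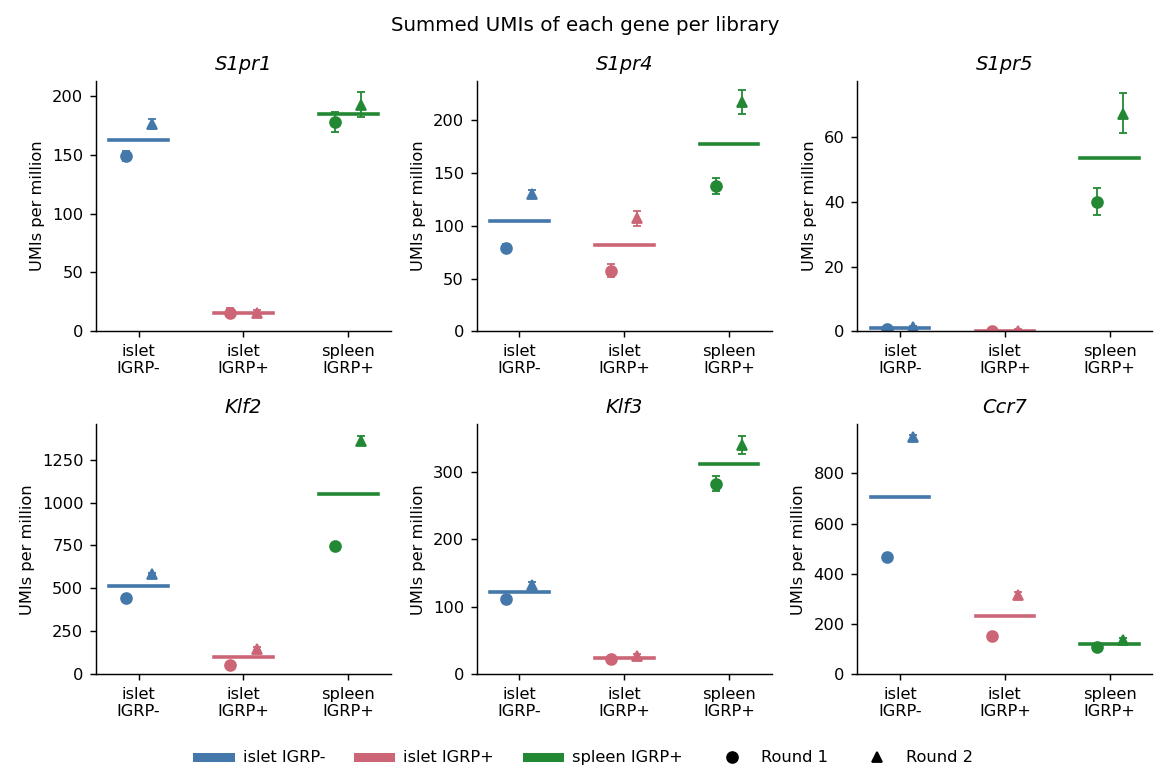
Level of each of the 6 genes in CPM (y axis, linear from 0) in the 3 groups (x axis), with a circle for Round 1 and a triangle for Round 2, the mean as a bar and exact 95% Poisson intervals as error bars. S1pr1 lay at 15.4 to 15.8 CPM in islet IGRP+ and at 149 to 193 CPM in the other 4 libraries, while S1pr5 was above 1.3 CPM in the spleen libraries alone.

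S1pr1, the main egress receptor, was at 149 CPM (Round 1) and 176 CPM (Round 2) in islet IGRP-, at 15.8 and 15.4 CPM in islet IGRP+, and at 178 and 193 CPM in spleen IGRP+. Both islet IGRP+ libraries lay far below the other 4, and the means were 163 ± 19.3 (SD, n = 2), 15.6 ± 0.28 and 185 ± 10.6 CPM. Against islet IGRP-, islet IGRP+ cells were lower by a log2 fold change of -3.38 ± 0.18 (SE), with an adjusted p of 0.0065 in edgeR's quasi-likelihood test. Against islet IGRP+, spleen cells were higher by 3.47 ± 0.18, with an adjusted p of 0.0012. Spleen IGRP+ and islet IGRP- differed by 0.09 on the log2 scale, with a 95% interval of -0.31 to 0.49 (adjusted p = 0.73), which leaves room for a difference of either sign.

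S1pr5, the receptor of circulating effector and natural killer cells, was at 40.0 and 67.3 CPM in the spleen libraries, from 384 and 465 UMIs. Islet IGRP- cells held 16 and 51 UMIs of it, or 0.55 and 1.26 CPM. Islet IGRP+ cells held 0 UMIs in Round 1 and 1 UMI in Round 2, among 5880696 and 7980997 UMIs. In Round 1 the spleen level was at least 78.3-fold higher than the islet IGRP+ level at a floor of 3 UMIs in that library, and the exact 95% counting interval of the ratio began at 63.4. In Round 2 the ratio was 537, with an exact 95% counting interval of 96.0 to 21266. Spleen against islet IGRP- was 72.8-fold in Round 1 and 53.4-fold in Round 2 (log2 fold change 5.74 ± 0.44, edgeR adjusted p = 0.0028). The step from islet IGRP- to islet IGRP+ had an adjusted p of 0.16 in edgeR, and the Round 1 level of islet IGRP- was only 1.08 times the floor of 3 UMIs in islet IGRP+.

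S1pr4 was at 79.2 and 131 CPM in islet IGRP-, at 57.3 and 107 CPM in islet IGRP+ and at 138 and 217 CPM in the spleen. The islet groups overlapped, and both spleen values were above all 4 islet values. Neither islet IGRP+ against islet IGRP- (log2 fold change -0.37, edgeR adjusted p = 0.56) nor spleen against islet IGRP- (0.65, adjusted p = 0.18) passed the test. Spleen against islet IGRP+ was 2.41-fold in Round 1 and 2.03-fold in Round 2, with an edgeR adjusted p of 0.058. Within each round the order was the same, from islet IGRP+ through islet IGRP- to spleen.

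Klf2, the factor that sustains S1pr1, was at 444 and 585 CPM in islet IGRP-, at 52.9 and 150 CPM in islet IGRP+ and at 744 and 1361 CPM in the spleen. The 3 groups did not overlap. Islet IGRP+ was lower than islet IGRP- by a log2 fold change of -2.39 ± 0.46, which missed the threshold (edgeR adjusted p = 0.085), with the rounds 2.83-fold apart within islet IGRP+. The spleen was higher than islet IGRP+ by 3.30 ± 0.48 (adjusted p = 0.0075), 14.1-fold in Round 1 and 9.08-fold in Round 2. Between spleen and islet IGRP- the log2 fold change was 0.91, with an edgeR adjusted p of 0.19.

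Klf3 was at 111 and 133 CPM in islet IGRP-, at 22.6 and 26.6 CPM in islet IGRP+ and at 283 and 340 CPM in the spleen. These were 3 separate levels, each tighter between rounds than the distance to the next. Islet IGRP+ was below islet IGRP- by a log2 fold change of -2.32 ± 0.15 (edgeR adjusted p = 0.0083). The spleen was above islet IGRP+ by 3.57 ± 0.16 (adjusted p = 0.0012) and above islet IGRP- by 1.25 ± 0.14 (adjusted p = 0.0057), so that Klf3 was the 1 member other than S1pr5 that passed the test as higher in the spleen than in both islet groups.

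Ccr7, the receptor for lymph node entry, was at 467 and 943 CPM in islet IGRP-, at 153 and 315 CPM in islet IGRP+ and at 108 and 135 CPM in the spleen. The groups did not overlap, and the spleen, whose cells were sorted for CD44, was lowest. The spleen was lower than islet IGRP- by a log2 fold change of -2.62 ± 0.40 (edgeR adjusted p = 0.0105). Islet IGRP+ was 3.05-fold lower than islet IGRP- in Round 1 and 2.99-fold lower in Round 2, which did not pass the test without a term for the round (adjusted p = 0.13). The spleen was 1.42-fold and 2.34-fold lower than islet IGRP+ (edgeR adjusted p = 0.099).

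The design bears on these calls. Same-numbered libraries came from the same mice, Round 2 was sequenced with longer reads, and Round 2 was the higher one for S1pr4, S1pr5, Klf2, Klf3 and Ccr7 in 3 of 3 groups and for S1pr1 in 2 of 3. With the round as a term in the edgeR fit, all 6 genes were called as lower in islet IGRP+ than in islet IGRP-, Klf2 by -2.48 (adjusted p = 1.3e-06), Ccr7 by -1.60 (adjusted p = 2.1e-05), S1pr4 by -0.38 (adjusted p = 0.028) and S1pr5 with an adjusted p of 0.0058. The same term also brought S1pr4 (1.04, adjusted p = 9.1e-06) and Ccr7 (-0.95, adjusted p = 0.00046) past the edgeR threshold between spleen and islet IGRP+, and S1pr4 (0.67, adjusted p = 0.00025) and Klf2 (0.87, adjusted p = 0.00093) between spleen and islet IGRP-, where S1pr1 stayed at 0.09 (adjusted p = 0.55).

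These counts of members stand against a background of all genes. Without the round, 2 of the 6 members were called between islet IGRP+ and islet IGRP-, where 1.19% of the 11277 genes tested were called, 17 higher and 117 lower. Between spleen and islet IGRP+ 4 of 6 were called against 26.6% of genes, and between spleen and islet IGRP- 3 of 6 against 22.4%. With the round as a term the shares of genes called were 30.5%, 55.1% and 55.4%, for 6, 6 and 5 members. The 3 comparisons share libraries, so that their values stand side by side and do not support each other. Leaving out either islet IGRP+ library took away both calls between the islet groups, and leaving out either islet IGRP- library took away that of Klf3, with edgeR adjusted p values of 0.053 to 0.069, while the log2 fold changes of S1pr1 stayed between -3.51 and -3.24. Leaving out either spleen library took away the Ccr7 call between spleen and islet IGRP- (adjusted p = 0.075 and 0.073).

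The share of cells with at least 1 UMI was also counted, after each cell was thinned to 1000 UMIs, which left out 26 to 100 cells per library. At such low counts this share largely follows the summed level and is not a separate result. Neither measure can tell fewer cells with the RNA from less RNA per cell. S1pr1 was found in 15.1% and 16.6% of islet IGRP- cells, in 1.27% and 1.29% of islet IGRP+ cells and in 16.5% and 17.6% of spleen cells. Klf3 followed with 11.8% and 13.0%, 2.04% and 2.70%, and 24.4% and 27.6%. The widest span was that of Klf2, with 32.7% and 39.1% of islet IGRP- cells, 6.45% and 12.2% of islet IGRP+ cells and 48.9% and 69.95% of spleen cells. Ccr7 was found in 29.4% and 43.1% of islet IGRP- cells, against 7.39% and 13.3% in islet IGRP+ and 7.94% and 9.99% in the spleen, where the 2 tetramer-positive groups overlapped. S1pr4 was in 7.84% and 11.9%, 7.05% and 9.26%, and 13.6% and 20.4% of cells. S1pr5 was in 0.095% and 0.079% of islet IGRP- cells, in 0 of 1178 and 0 of 1555 islet IGRP+ cells, which allows shares of up to 0.255% and 0.193% at 3 cells of the total, with exact upper limits of 0.313% and 0.237%, and in 4.23% and 6.995% of spleen cells.

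**Figure D2:**
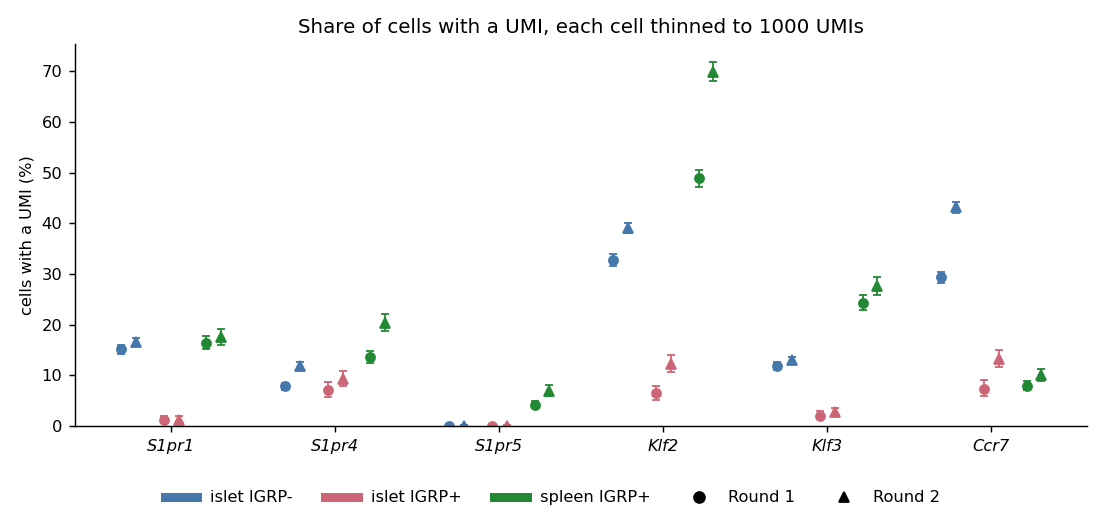
Share of cells with at least 1 UMI of each gene (y axis, percent) after thinning every cell to 1000 UMIs, for the 6 genes (x axis) in the 3 groups (colours), with a circle for Round 1, a triangle for Round 2 and exact 95% Clopper-Pearson intervals as error bars. S1pr1 was in under 1.3% of islet IGRP+ cells in both rounds and in 15.1% to 17.6% of the cells of the other libraries.

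Without thinning, S1pr1 was found in 36.8% and 41.7% of islet IGRP- cells, in 5.98% and 5.94% of islet IGRP+ cells and in 36.7% and 40.1% of spleen cells, although spleen cells were the shallowest, with medians of 2590 and 2764.5 UMIs against 3793 to 4216.5 in the islet. Free RNA in the droplets can give such UMIs to cells that lack a gene. The rule used for exocrine cells, which should lack these genes, found 0 cells, and no other such set was drawn. The study left out an islet cluster of exocrine cells, which was not rebuilt here, so that such cells may remain among the kept cells. The 71 islet IGRP- cells without a CD3 or CD8 UMI, looked at after the data were seen, held S1pr1 at 165 CPM, Klf2 at 458 CPM and Ccr7 at 597 CPM and so gave no lower bound. The intervals cover counting error and not the spread between pools.

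The second question was how the genes varied with clone size among islet IGRP- cells. Cells with 1 productive alpha and 1 productive beta chain were grouped by their pair of CDR3 sequences, and clones were sorted by how many cells they had in their library. S1pr1, Klf2, Klf3 and Ccr7 fell from clones of 1 cell to clones of 2 to 4 and were lowest in clones of 20 or more, where S1pr1 and Ccr7 were 10.5-fold and 10.3-fold lower. S1pr4 was lower by a small amount in the 2 largest classes, and S1pr5 had too few UMIs in any class to follow.

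**Figure D3:**
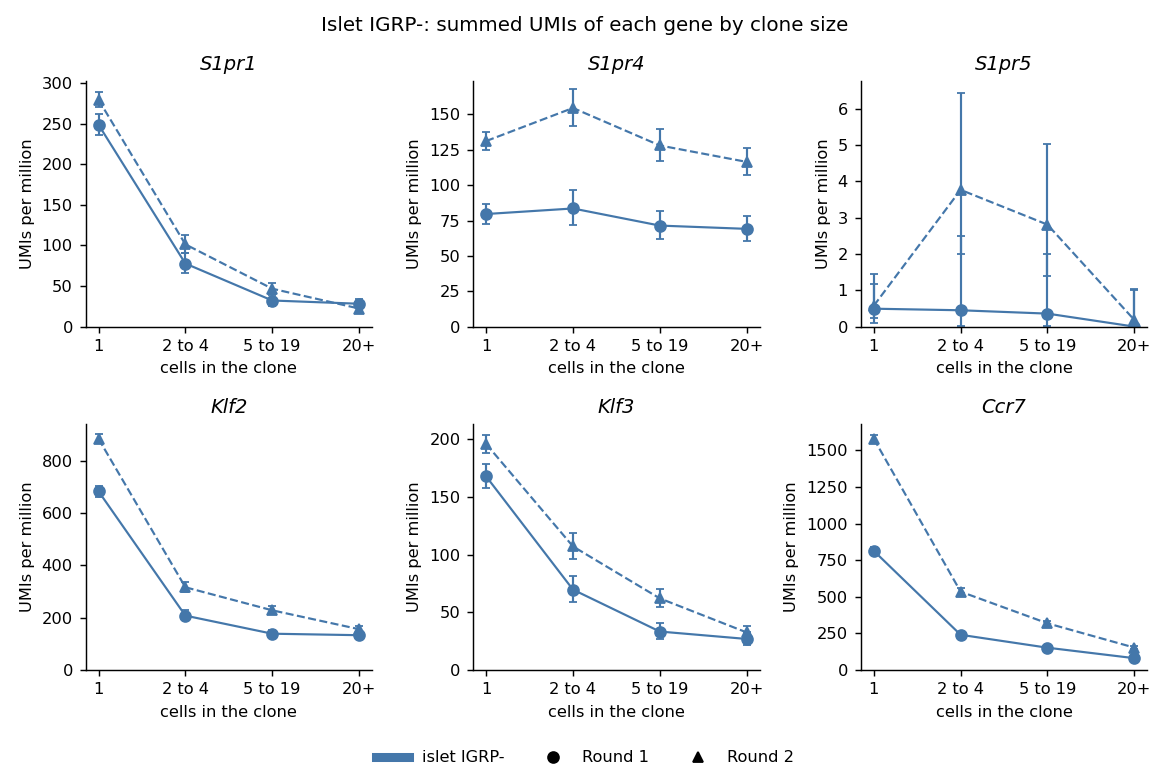
Level of each gene in CPM (y axis, linear from 0) in islet IGRP- cells by the size of their clone in the library (x axis), with circles and solid lines for Round 1, triangles and dashed lines for Round 2 and exact 95% Poisson intervals as error bars. S1pr1 went from 249 and 279 CPM in clones of 1 cell to 28.1 and 22.3 CPM in clones of 20 or more, while S1pr4 stayed between 69.1 and 155 CPM.

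The classes held 1389 and 2959 cells for clones of 1 cell, 431 and 720 for 2 to 4, 522 and 838 for 5 to 19, and 650 and 966 for 20 or more, the last in 11 and 25 clones. A clone of 1 cell is 1 cell in this sample and can be larger in the tissue. S1pr1 was at 249 CPM (Round 1) and 279 CPM (Round 2) in clones of 1 cell, at 77.7 and 101 CPM in clones of 2 to 4, at 32.1 and 46.7 CPM in clones of 5 to 19 and at 28.1 and 22.3 CPM in clones of 20 or more. The 2 largest classes were close in Round 1 and apart in Round 2. The level in islet IGRP+ cells was 15.8 and 15.4 CPM, below every class.

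Klf2 was at 683 and 885 CPM in clones of 1 cell, at 207 and 316 CPM in clones of 2 to 4, at 138 and 228 CPM in clones of 5 to 19 and at 132 and 156 CPM in clones of 20 or more. Klf3 stood at 168 and 196 CPM, then at 69.6 and 107 CPM, 33.2 and 62.0 CPM, and 26.8 and 32.5 CPM. Ccr7 stood at 813 and 1580 CPM, then at 239 and 534 CPM, 151 and 318 CPM, and 79.5 and 152 CPM. These 3 genes and S1pr1 were lower at each step in both rounds.

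In the edgeR fit with the round as a term, the log2 fold changes of S1pr1 against clones of 1 cell were -1.72 ± 0.13, -2.92 ± 0.14 and -3.59 ± 0.15 for the 3 larger classes. Those of Ccr7 were -1.82 ± 0.07, -2.55 ± 0.07 and -3.55 ± 0.08, and in clones of 20 or more Ccr7 ranked first of 10224 genes by p. Klf2 changed by -1.76, -2.30 and -2.62 and Klf3 by -1.22, -2.13 and -2.81. These 4 genes were called in each class, where 25.4%, 32.4% and 43.2% of all genes were called. S1pr4 was at 79.6 and 131 CPM in clones of 1 cell and at 69.1 and 116 CPM in clones of 20 or more, a log2 fold change of -0.36 ± 0.09 (edgeR adjusted p = 0.0050), after -0.27 (adjusted p = 0.034) for 5 to 19 and 0.00 (adjusted p = 0.99) for 2 to 4. Without the round term Ccr7 (edgeR adjusted p = 0.12) and Klf3 (adjusted p = 0.067) lost their calls in clones of 2 to 4 cells, which left 2 of the 6 members, and S1pr4 lost its calls in clones of 5 to 19 (adjusted p = 0.75) and of 20 or more (adjusted p = 0.59).

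The UMIs of S1pr5 were 3 and 7 in clones of 1 cell, 1 and 13 in clones of 2 to 4, 1 and 11 in clones of 5 to 19, and 0 and 1 in clones of 20 or more. No class passed the edgeR test, with adjusted p values of 0.0503, 0.12 and 0.16, and Round 2 alone carried the higher counts of the middle classes. With clones defined by the beta chain alone, clones of 2 to 4 and of 5 to 19 cells were called as higher (adjusted p = 0.00097 and 0.021 in edgeR), and with the size factors of DESeq2 in the edgeR fit those of 2 to 4 were too (adjusted p = 0.0494). Median depth was 3811 and 3731 UMIs per cell in clones of 1 cell, 4369 and 4057 in clones of 2 to 4, 4528 and 3961 in clones of 5 to 19 and 4860 and 4929 in clones of 20 or more, and its part in the result was not tested. CPM divides by depth, and after thinning to 1000 UMIs S1pr1 was found in 23.7% and 24.3% of the cells of clones of 1 and in 2.00% and 1.66% of those of clones of 20 or more. For Ccr7 the shares were 47.9% and 65.9% against 4.78% and 7.87%, for Klf2 44.6% and 53.8% against 13.1% and 14.2%, and for Klf3 16.3% and 17.5% against 3.54% and 4.14%. S1pr4 was found in 7.94% and 11.8% against 6.16% and 11.6%.

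Levels below those of clones of 1 cell were not confined to a few of the 36 large clones, which are not replicates of a condition. The size of the drop varied. The highest S1pr1 among them, 212 CPM in Round 1, was close to the 249 CPM of clones of 1 cell in that round. Of the 36 islet IGRP- clones with 20 or more cells, 36 had S1pr1 below the level of clones of 1 cell in their round, and the same held for Klf2, Klf3 and Ccr7 in 36 of 36. Their S1pr1 ran from 0 to 212 CPM with a median of 23.97, Klf2 from 86.6 to 329 CPM with a median of 149, Klf3 from 7.9996 to 106 CPM with a median of 29.8 and Ccr7 from 0 to 370 CPM with a median of 115. S1pr4 was below the level of clones of 1 cell in 5 of 11 and 19 of 25, and S1pr5 was at 0 in 35 of 36. A clone of Round 1, with 232 cells, was also found in the tetramer-positive islet library and had S1pr1 at 14.6 CPM and Ccr7 at 38.8 CPM. Without it the other 10 large clones of Round 1 had S1pr1 at 35.1 CPM and Ccr7 at 100.2 CPM, and in Round 2 there was no such clone.

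A clone could be assigned to 673 and 1191 of the 1204 and 1598 kept islet IGRP+ cells. The cells with a clone belonged almost all to expanded clones, with 12 and 14 cells in clones of 1. The islet groups were therefore also set side by side in clones of 5 or more cells, 1172 and 1804 cells of islet IGRP- and 642 and 1140 of islet IGRP+. S1pr1 was at 29.9 and 32.5 CPM in islet IGRP- and at 15.7 and 14.8 CPM in islet IGRP+. Klf3 was at 29.6 and 44.9 against 18.9 and 25.03 CPM, and Klf2 at 135 and 186 against 52.7 and 156 CPM, where the groups overlapped. Ccr7 was at 111 and 222 against 135 and 288 CPM, higher in islet IGRP+ in both rounds, whereas over all cells it was lower there. The Round 1 cells of islet IGRP- include the clone of 232 cells also found in the tetramer-positive library, with S1pr1 at 14.6 and Ccr7 at 38.8 CPM. This comparison was not repeated without that clone. S1pr4 was at 70.1 and 121 against 59.5 and 104 CPM.

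None of the 10383 genes was called by edgeR in these clones (0% of genes, with 297 at an unadjusted p under 0.05), and so none of the 5 members tested. S1pr1 had a log2 fold change of -0.95 ± 0.22 (unadjusted p = 0.0058, adjusted p = 0.97), against -3.38 over all cells, and Ccr7 one of 0.42 ± 0.41. With the round as a term 5.63% of genes were called, among them S1pr1 (-0.96, edgeR adjusted p = 1.5e-05), Klf2 (-0.67, adjusted p = 0.00097) and Klf3 (-0.68, adjusted p = 0.0046), while Ccr7 (0.42, adjusted p = 0.073) was not. That fit leaves 1 residual degree of freedom for 4 sums. Its p values took the spread of each gene from all genes as if it were known, so they are smaller than 4 sums alone could give. S1pr5 was too low to be tested.

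The third question was whether spleen and islet differed within the same clones. In islet IGRP+ and spleen IGRP+, 31 clones of Round 1 and 35 of Round 2 were found in both tissues, with 632 and 1134 islet cells and 1375 and 1445 spleen cells. S1pr1 was at 13.0 and 15.0 CPM in their islet cells and at 186 and 201 CPM in their spleen cells. Klf2 was at 49.4 and 156 against 769 and 1403 CPM, Klf3 at 19.7 and 24.9 against 288 and 341 CPM, and S1pr4 at 58.5 and 104 against 154 and 232 CPM. Ccr7 was the 1 gene with the opposite order, at 139 and 291 CPM in the islet and 49.8 and 76.0 CPM in the spleen. For S1pr5 the islet cells held 0 and 1 UMI and the spleen cells 150 and 284. The Round 1 level was at least 48.2-fold higher in the spleen at the floor of 3 UMIs, with an exact counting interval from 38.7 upward, and the Round 2 ratio was 415, with an exact counting interval of 74.0 to 16464.

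**Figure D4:**
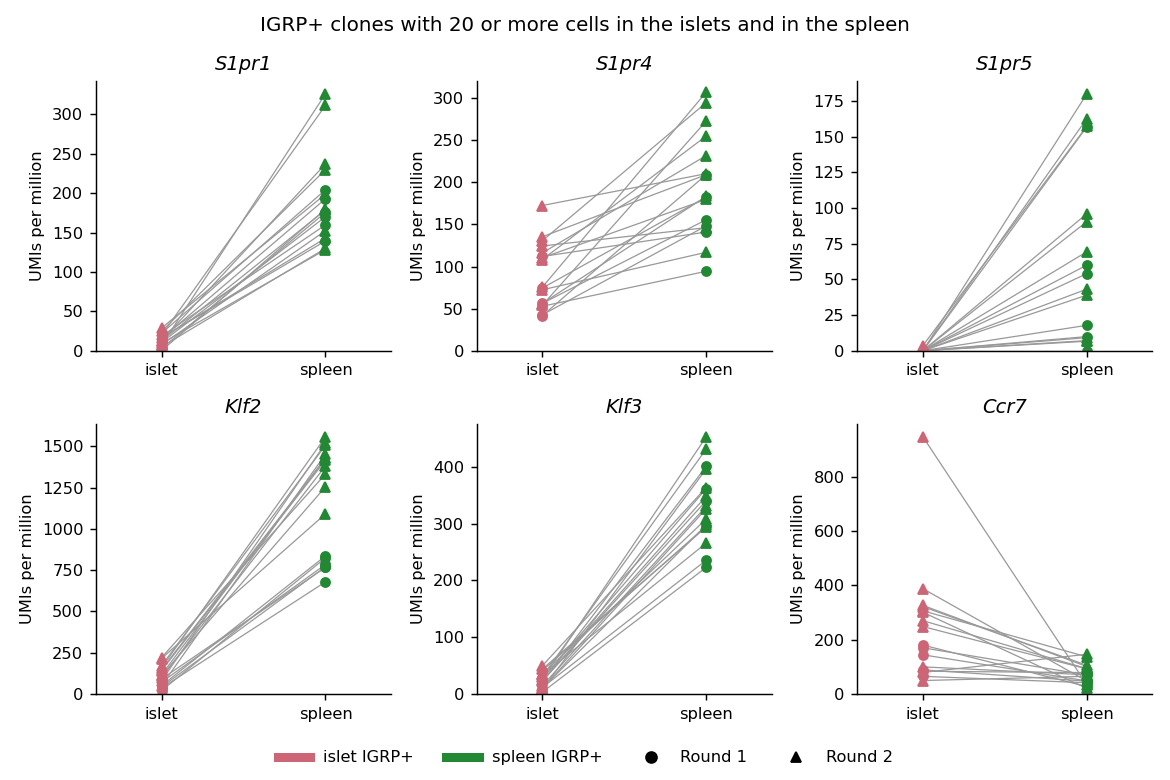
Level of each gene in CPM in the islet cells and in the spleen cells of the same clone (y axis, linear from 0), with circles for Round 1, triangles for Round 2 and a grey line for each of the 17 tetramer-positive clones that had 20 or more cells in both tissues. S1pr1, S1pr4, Klf2 and Klf3 are higher in the spleen in 17 of 17 clones, and Ccr7 is lower in 15.

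All 6 members passed the edgeR test in these clones, where 16.3% of 9960 genes were called, and also with the round as a term, where 51.1% were. The log2 fold changes from islet to spleen were 3.66 ± 0.21 for S1pr1 (adjusted p = 0.0047), 3.70 ± 0.21 for Klf3 (adjusted p = 0.0047), 3.30 ± 0.55 for Klf2 (adjusted p = 0.019), 1.13 ± 0.28 for S1pr4 (adjusted p = 0.0476) and -1.88 ± 0.34 for Ccr7 (adjusted p = 0.023). Leaving out islet IGRP+ Round 1 or spleen IGRP+ Round 2 took away the S1pr4 call, with edgeR adjusted p values of 0.082 and 0.15. The fit with the round as a term again took the spread of each gene from all genes as if it were known. Tissue preparation differed between the sides of this comparison too.

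In the 17 clones with 20 or more cells in both tissues, 6 of Round 1 and 11 of Round 2, S1pr1 was higher in the spleen in 17, from 128 to 326 CPM against 0 to 28.7 CPM in the islet, and the ranges did not touch. The same held for Klf2, at 679 to 1557 against 20.01 to 219 CPM, and for Klf3, at 223 to 453 against 2.86 to 49.3 CPM. S1pr4 was also higher in 17, but its ranges, 94.3 to 307 and 41.5 to 172 CPM, overlapped. S1pr5 ran in the spleen from 0 to 179.9 CPM with a median of 54.0, and was above 0 in 16 spleen clones and in 1 islet clone. Ccr7 was lower in the spleen in 15 clones and higher in 2 clones of Round 2, with islet levels from 49.3 to 947 CPM. Clones of 1 library share the same pools and are not replicates of a condition.

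The members were also described in cells gated on other genes, with no test, because the gates overlap and share cells. The split by Pdcd1 alone, the gene of the inhibitory receptor PD-1, was added after the data were seen. Among islet IGRP- cells, those without a UMI of Pdcd1 had S1pr1 at 209 and 231 CPM, Klf2 at 623 and 761 CPM and Ccr7 at 685 and 1269 CPM. Cells with Havcr2, a gene of terminally differentiated cells, together with Pdcd1 had S1pr1 at 28.5 and 40.7 CPM and Ccr7 at 49.3 and 119 CPM. Cells with Tcf7, a factor of stem-like T cells, together with Pdcd1 lay between, with S1pr1 at 95.9 and 128 CPM, Klf2 at 249.6 and 386 CPM and Ccr7 at 288 and 666 CPM.

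**Figure D5:**
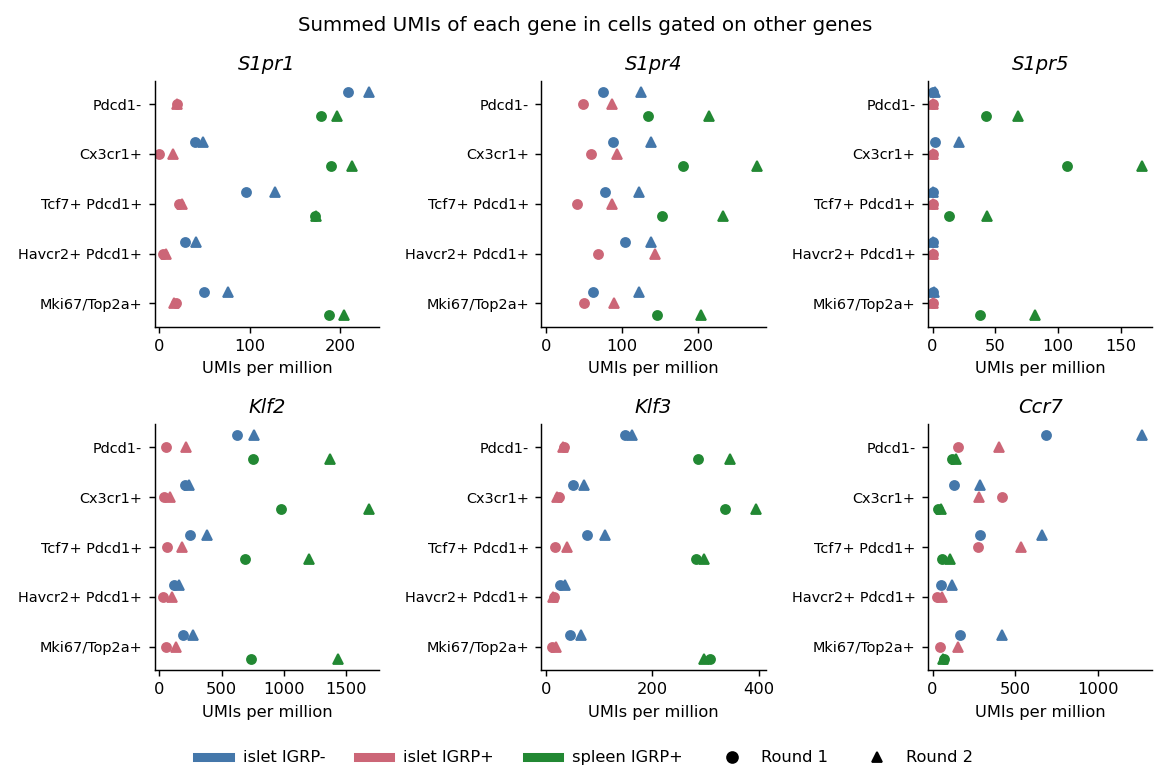
Level of each gene in CPM (x axis, linear) in cells gated on 5 sets of other genes (y axis), by group (colours) and round (circle Round 1, triangle Round 2), for gates with at least 20 cells in the library. S1pr1 ran from 28.5 to 231 CPM over the islet IGRP- gates, from 0 to 25.1 CPM over the islet IGRP+ gates and from 172 to 213 CPM over the spleen gates.

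In each gate and round S1pr1 was lower in islet IGRP+ than in islet IGRP-. Across unlike gates and rounds the margin was small. The highest islet IGRP+ value, 25.1 CPM, came from 44 UMIs, and the lowest islet IGRP- value, 28.5 CPM, from 48 UMIs. In islet IGRP+ S1pr1 was at 22.1 and 25.1 CPM in cells with Tcf7 and Pdcd1. It was at 4.26 and 7.43 CPM, from 4 and 13 UMIs, in cells with Havcr2 and Pdcd1, and at 19.6 and 19.3 CPM in cells without a Pdcd1 UMI. Ccr7 varied more within islet IGRP+, at 24.5 and 58.3 CPM with Havcr2 and Pdcd1, at 276 and 532 CPM with Tcf7 and Pdcd1, and at 422 and 284 CPM in the 52 and 66 cells with Cx3cr1. In the spleen S1pr1 was between 172 and 213 CPM in the plotted gates and at 167 and 169 CPM in all cells with Pdcd1, which are not plotted. S1pr5 and Ccr7 had opposite orders between a pair of gates there. In cells with Cx3cr1, a gene of circulating effector cells, S1pr5 was at 107 and 167 CPM and Ccr7 at 31.6 and 53.5 CPM, and in cells with Tcf7 and Pdcd1 S1pr5 was at 12.8 and 43.4 CPM and Ccr7 at 55.3 and 105 CPM. Klf2 was at 980.4 and 1682 CPM with Cx3cr1 and at 687 and 1204 CPM with Tcf7 and Pdcd1.

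Without thinning, S1pr5 was seen in 265 and 278 spleen cells, of which 56.6% and 62.9% also had a UMI of Cx3cr1, against 23.9% and 27.4% of all spleen cells. Depth was not evened out in this count, and its part was not tested. The 121 and 174 spleen cells with S1pr5 and a paired receptor came from 21 and 30 clones, with 29 and 44 cells in the largest. By clone size in the spleen, S1pr5 was at 5.02 and 16.7 CPM in clones of 1 cell, at 41.7 and 0 CPM in clones of 2 to 4, at 157 and 88.0 CPM in clones of 5 to 19 and at 35.8 and 66.4 CPM in clones of 20 or more. These classes held 252 and 162, 36 and 56, 91 and 169, and 1281 and 1281 cells. The values were highest in clones of 5 to 19 in both rounds, where only 9 and 15 thinned cells had a UMI. In Round 2 their share, 8.98% (95% interval 5.11 to 14.4), overlapped that of clones of 20 or more, 6.67% (5.36 to 8.18). Ccr7 was at 318 and 481 CPM in clones of 1 cell and at 48.4 and 75.2 CPM in clones of 20 or more, while S1pr1 was at 174 and 185 CPM in clones of 1 cell and at 184 and 199.8 CPM in clones of 20 or more. In islet IGRP- S1pr5 was seen in 13 and 30 cells, 1 and 9 of them with Cx3cr1. The 5 and 18 with a paired receptor came from 5 and 17 clones, none of which was found in the spleen library. That library was sorted for tetramer-positive cells alone, so it cannot show whether these tetramer-negative clones were also in the spleen.

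Within cells thinned to 1000 UMIs, S1pr1 and Klf2 were found together in islet IGRP- 1.72 and 1.499 times as often as the product of their shares, against 1.09 in both spleen libraries. In islet IGRP- the ratio was 1.69 and 1.49 for S1pr1 with Ccr7 and 0.21 and 0.38 for S1pr1 with Cxcr6, a chemokine receptor gene of tissue-resident cells. For Ccr7 with Pdcd1 it was 0.29 and 0.35. Over 1859 genes, the ones most like each member by their mean correlation over cells within libraries were Klf2 for S1pr1 and for Klf3, Tmsb10 for Klf2, S100a10 for S1pr4, Zeb2 for S1pr5 and Rps20 for Ccr7. The coefficients, 0.081 to 0.21, were low in these sparse counts, and the cells of a library share its preparation. Over libraries S1pr1 with Klf2 ran from -0.029 to 0.22 and Klf2 with Tmsb10 from -0.0079 to 0.29. The others were positive in each library used, which for S1pr5 were 4.

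Genes around the members were followed in 6 lists. Of the genes named from them, Sphk2, Spns1, Ccr9, Gcnt1, Klf8, Tob1, Itga1, Prf1 and Cmklr1, those named for clone size other than Cd69, and Foxp1 in the spleen comparison were chosen after their values were seen. Foxo1, upstream of several members, was at 171 and 251 CPM in islet IGRP-, at 87.6 and 211 CPM in islet IGRP+ and at 84.9 and 145 CPM in the spleen, and passed the test in none of the 3 comparisons. With the round as a term Foxo1 was called in each, at -0.59 between the islet groups (edgeR adjusted p = 0.0070), -0.41 for spleen against islet IGRP+ (adjusted p = 0.028) and -0.997 for spleen against islet IGRP- (adjusted p = 5.59e-05). Cd69 was at 301 and 328 CPM in islet IGRP-, at 153 and 178 CPM in islet IGRP+ and at 714 and 583 CPM in the spleen, higher there than in islet IGRP+ by a log2 fold change of 1.90 ± 0.23 (edgeR adjusted p = 0.0049). Between the islet groups Cd69 missed the threshold in the main fit and was called with the round as a term (-0.93, edgeR adjusted p = 0.00047). It was also called by DESeq2 (-0.90, adjusted p = 0.011) and by edgeR without the filter on low counts (-0.95, adjusted p = 0.031). Both spleen libraries had the highest Cd69 and the highest S1pr1 levels of the 6.

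Between the islet groups few list genes were called, as few genes were in all. Of 16 tested genes of upstream regulation and quiescence, 3 fell, with a list median of -0.69 on the log2 scale against -0.01 over all genes. They were Il7r (-3.74), the receptor gene for the survival factor interleukin 7, and Lef1 (-3.08) and Foxp1 (-1.56), factors of naive cells. Of 13 lymph node homing genes 1 fell, the gut homing receptor gene Ccr9 (-5.97). Its means were 9.38 CPM in islet IGRP- and 0.15 CPM in islet IGRP+, so low that the size of its fold change is uncertain. Of 8 genes of circulating effector cells 1 fell, the granzyme gene Gzma (-2.24). None of the 18 tested genes of S1P signalling, the 10 Krueppel-like factors outside the members or the 10 genes of tissue retention was called, and their medians were 0.05, -0.27 and -0.24. These counts are from the fit without the round, where 1.19% of all genes were called against 30.5% with it, and do not show equal levels. Of the retention genes, Cxcr6 and Xcl1 had means of 552 and 621 CPM in islet IGRP+ against 245 and 301 CPM in islet IGRP-. Itgae went the other way, at 14.1 against 52.4 CPM. Leaving out any 1 of the 4 libraries took away the calls of Lef1, Foxp1 and Gzma, and any but islet IGRP- Round 2 that of Il7r.

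Between spleen and islet IGRP+, where 12.9% of all genes rose and 13.7% fell, 4 of 18 S1P signalling genes rose and 4 fell. Those that rose were Dock2 (1.10), Arhgef1 (1.02), Arrb2 (0.94) and the transporter gene Spns1 (0.90), and those that fell were Rgs2 (-2.47), Gna13 (-2.26), Rgs1 (-1.91), whose product dampens chemokine and S1P receptor signals, and the S1P kinase gene Sphk2 (-0.94). Of the upstream regulators 5 of 16 rose and none fell, with Il7r at 4.72, Lef1 at 2.71, Tcf7 at 1.73, Foxp1 at 1.00 and Tob1 at 0.74. Of the homing genes 3 of 13 rose and 1 fell. Those that rose were the integrin gene Itga4 (1.28), the prostaglandin receptor gene Ptger4 (1.22) and Ccr9 (5.52), and the glycosyltransferase gene Gcnt1 (-2.03) fell. Ccr9 had means of 7.30 CPM in the spleen and 0.15 CPM in islet IGRP+, and Gcnt1 of 1.45 and 5.62 CPM. Of the other Krueppel-like factors 3 of 10 fell and none rose, namely Klf8 (-1.81), Klf4 (-1.61) and Klf10 (-0.89), a share near that of all genes called. Leaving out any 1 of the 4 libraries took away the call of Klf10. Leaving out either spleen library, or 1 of the islet IGRP+ libraries (Round 1 for Dock2, Arhgef1 and Ptger4, Round 2 for Klf4), took away those of these 4 genes, leaving out either spleen library that of Arrb2, and leaving out spleen Round 2 that of Itga4.

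Of the tissue retention genes 4 of 10 fell in the spleen and 1, Cd69, rose, and the list median was -1.02 against 0.03 over all genes. The chemokine gene Xcl1 was at -3.35, Cxcr6 at -2.88, the integrin gene Itga1 at -1.97 and Rgs1, which is in both lists, at -1.91. Of the genes of circulating effector cells 5 of 8 rose and 2 fell, with a median of 1.87. Those that rose were Cx3cr1 (3.43), Cmklr1 (4.39), Klrg1 (2.92), Gzma (2.73) and the perforin gene Prf1 (1.01). Cmklr1 had means of 3.48 CPM in the spleen and 0.15 CPM in islet IGRP+, so that the size of its fold change is uncertain. The granzyme gene Gzmb (-2.93) and the factor gene Zeb2 (-0.73) fell, and the call of Zeb2 was lost without either spleen library or islet IGRP+ Round 2. In clones of 20 or more islet IGRP- cells against clones of 1, 12 of the 16 upstream regulators fell and none rose, with a median of -0.63 against -0.02 over all genes, of which 22.2% rose and 21% fell. Il7r at -3.88 and Lef1 at -3.83 fell most. In the same classes 5 of 12 homing genes rose, Gcnt1 (2.34), Itga4 (1.04), Itgb2 (0.90), Cxcr4 (0.47) and Itgal (0.39), and 4 fell, Ccr9 (-5.37), Cd47 (-0.35), Itgb7 (-0.23) and Selplg (-0.19). Of 18 S1P signalling genes 7 rose, S1pr2 (1.38), a receptor that restrains migration, the most, and 4 fell, Sgpp1 (-0.76), Arhgef1 (-0.59), Gna13 (-0.33) and Dock2 (-0.26). Of 8 Krueppel-like factors Klf10 (0.57) rose and Klf7 (-1.49), Klf11 (-0.75), Klf6 (-0.34) and Klf13 (-0.21) fell. Of the retention genes 4 of 10 rose, Prdm1 (3.40), Cxcr6 (2.66), Xcl1 (1.68) and Rgs1 (0.89), and Itgae (-0.70) and Cd69 (-1.10) fell. Of the effector genes Cx3cr1 (2.23), Zeb2 (2.10) and Tbx21 (1.15) rose and Gzma (-2.12) fell, out of 7. Cells of clones of 20 or more had Cd69 1.89-fold lower.

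Levels in CPM without a further scaling factor placed the median of all genes 0.12 higher (log2) in spleen than in islet IGRP+ and 0.14 to 0.16 higher in the larger clones than in clones of 1 cell, and the edgeR fits, scaled by TMM, placed these medians at 0.04 and -0.01 to -0.02. The p values rest on 2 pools per group, and edgeR also takes part of each gene's spread from all genes tested. Fits with the round as a term, such as that of clone size, compare within rounds. Their p values do not measure the spread of levels between pools.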

How the data were processed

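Each of the 6 libraries paired 10x 5′ gene expression with T cell receptor sequences. The authors made the deposited UMI counts with Cell Ranger (version 5.0.1 in the headers of the count files, while the study's methods name a later version) on mm10, and the receptor contigs with the same software. Cells with at least 5% mitochondrial UMIs, under 200 genes or over 3500 (islet) or 2000 (spleen) genes were left out, as in the study's methods; the upper limit is also the only treatment of doublets, and no doublet caller was run. Library totals after this step were 5880696 to 40469961 UMIs. Libraries shared 2 to 64 cell barcodes in pairs, at most 1.03% of the smaller library, and 0 of these had the same clone. A clone is a pair of CDR3 nucleotide sequences in cells with exactly 1 productive alpha and 1 productive beta chain, which 46.5% to 74.5% of cells had, and 1, 5 and 4 clones of islet IGRP-, islet IGRP+ and spleen were found in both rounds. Clone size was counted within a library over kept cells.

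UMI counts were summed per library, or per library and clone class, and tested with edgeR 4.0.16 (R 4.3.3; TMM, filterByExpr, quasi-likelihood F test, Benjamini-Hochberg over all genes tested, threshold 0.05); DESeq2 1.42.0 was an alternative. The 6-library fit and the clone-size fit have 3 residual degrees of freedom and the other fits 2. Rounds are pools of the same 10 mice across tissues, so that the numbers pair the samples. Deviations from the group means of same-numbered libraries correlated by 0.67, 0.70 and 0.60 over 11277 genes. Read length also differed between rounds, so these values cannot tell shared mice from shared sequencing. The fits were tested on simulated data with known changes. Shares of cells are given with exact Clopper-Pearson intervals and levels with exact Poisson intervals at 95%.

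The 6 members were always named. From each list, up to 3 genes per direction past the threshold in islet IGRP+ against islet IGRP- or spleen against islet IGRP+, and with 20 CPM or more as the higher group mean, were named by rule, and Foxo1 and Cd69 always. Some list genes, and a gate that rests on 1 of them, are not reported here. The members and the lists (S1P metabolism and receptor signalling, lymph node homing, Krueppel-like factors, upstream regulators and quiescence, tissue retention, effector cells of blood) were chosen with earlier results of these data known. Gene positions are from GENCODE M21 and promoters from RefSeq, both on GRCm38.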

Additional observations from a re-analysis of the deposited data

How the results depend on the processing

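The p values rest on 2 pools per group, and tissue, preparation and, for rounds, read length are fixed together. Of 417 fold changes of the members under an alternative, 348 kept their direction and their side of the threshold or moved by less than the spread, 8 reversed, 14 lost a call, 24 gained one and 23, all of clone-size classes with 1 library left out and so without a test, kept their direction and moved by more than the spread. Where no cause is named, the cause was not tested. With the replicate block, the rounds as pairs, genes called went to 3442 (islet IGRP+ against islet IGRP-), 6215 (spleen against islet IGRP+), 6251 (spleen against islet IGRP-), 585 (clones of 5 or more) and 5094 (clones in both tissues), and members called to 6 between the islet groups, 5 between spleen and islet IGRP- and 3 in clones of 5 or more. Without the replicate block the clone classes of 2 to 4, 5 to 19 and 20 or more had 263, 636 and 1338 genes called, and the first 2 members. The pairing changed no other call on a member than those given in the report. Calls on Foxo1 in clones of both tissues (-0.51, adjusted p = 0.0023) and in clones of 5 or more (-0.68, adjusted p = 0.00057) were gained with it, and that on Cd69 in clones of 2 to 4 was lost without it (-0.55, adjusted p = 0.15). DESeq2 called 519 genes and 4 members between the islet groups. Without the filter on low counts 711 genes and 5 members were called there, 93 genes in clones of 5 or more, and 2916 in clones of both tissues. Between spleen and islet IGRP+, S1pr4 and Ccr7 were called by DESeq2 (adjusted p = 0.019 and 0.029) and by edgeR without that filter (adjusted p = 0.0051 and 0.013). With no upper limit on genes per cell, edgeR called S1pr4 there too (adjusted p = 0.042). With 1 library left out, genes called ranged from 0 to 10 between the islet groups (members 0 to 1), from 892 to 1891 between spleen and islet IGRP+, from 382 to 686 between spleen and islet IGRP-, from 0 to 30 in clones of 5 or more and from 989 to 1835 in clones of both tissues; these fits have fewer samples.

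Reversed log2 fold changes were all of genes that were not called. S1pr4 in islet IGRP- clones of 2 to 4 cells was -0.053 with clones by beta chain alone and -0.011 with no filter on low counts. In islet IGRP- clones of 20 or more cells by beta chain alone, S1pr5 was 0.78 and Foxo1 0.0072. With 1 library left out, S1pr5 ranged from -0.042 to 1.60 in clones of 2 to 4 cells and from -0.14 to 1.27 in clones of 5 to 19 cells, where the reversal came without replicate 2 and 1 library per class leaves no test. Between the islet groups in clones of 5 or more cells, Ccr7 ranged from -0.084 (without islet IGRP+ replicate 2) to 0.92, and S1pr4 from -0.48 to 0.22, with 0.22 without islet IGRP- replicate 2 and 0.11 without islet IGRP+ replicate 1. Foxo1 ranged from -0.86 to 0.14 for spleen against islet IGRP+ and from -1.02 to 0.089 in clones found in both tissues, above 0 without islet IGRP+ replicate 2. A group left with 1 library was assumed to vary like the others.

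Shares of cells with a UMI move with depth by construction. Thinned to 500 UMIs the mean shares in islet IGRP- were 8.62% (S1pr1), 4.98% (S1pr4), 0.032% (S1pr5), 22.5% (Klf2), 6.24% (Klf3) and 24.3% (Ccr7), in islet IGRP+ 0.86% (S1pr1), 4.26% (S1pr4) and 1.36% (Klf3), and in the spleen 8.69%, 8.85%, 2.84%, 38.5%, 14.1% and 4.63% in the order of the first list. Not thinned they were 39.2%, 31.8%, 0.27%, 63.1%, 33.9% and 54.3% in islet IGRP-, 5.96%, 27.2%, 0.031%, 26.5%, 9.75% and 19.9% in islet IGRP+, and 38.4%, 36.5%, 9.48%, 84.7%, 50.8% and 20.1% in the spleen.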
